A study of Homo sapiens with 14 samples.

Results

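The E2F transcription factors E2F1 to E2F8 and the pocket proteins RB1 and RBL1 were followed across RNA-seq libraries of MDA-MB-231, an established human breast cancer cell line of mesenchymal, basal type. The members were the 10 listed gene symbols, and all 10 stood among the 13734 genes of the deposited table and passed the filter on low values. The 14 libraries fell into 7 groups of 2. Cells were transfected with YAP/TAZ siRNA mix 1 or mix 2 and harvested after 48 h, with BRD siRNA mix A or mix B and harvested after 72 h, or with control siRNA. Other cells were given JQ1, a BET inhibitor, at 1 µM for 24 h, or DMSO. When control siRNA and DMSO cells were harvested is not in the labels, so neither knockdown could be set against a control known to be of its own time. YAP1 and WWTR1 (TAZ) are the co-activators that Hippo signalling restrains, and the series concerns the role of BET proteins in their transcription.

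E2F factors bind promoters of genes for DNA synthesis and mitosis, mostly as dimers with a DP protein. E2F1, E2F2 and E2F3 act mainly as activators at the entry into S phase. E2F4 and E2F5 act mainly as repressors together with the pocket proteins, E2F6 represses through Polycomb proteins without a pocket protein, and the atypical E2F7 and E2F8 repress without a DP partner. RB1 chiefly holds the activators and RBL1 (p107) chiefly E2F4, until cyclin-dependent kinases phosphorylate them. Several of these genes are themselves E2F targets, E2F1, E2F7, E2F8 and RBL1 among them.

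The deposited unit, called scaled RPM here, is RPM of a library size adjusted by the authors. Depth ran between 15741695 and 37311326 reads, with 1 read worth 0.0276 to 0.0602 scaled RPM. Fold changes were taken of scaled RPM + 1 in log2, so that those of low genes come out too small, and adjusted p-values come from limma over 13674 genes. Nothing in the labels marks replicates as separate cultures, and the p-values therefore reflect a spread between libraries that may be technical. In bulk RNA, fewer cells in a given phase of the cycle and less RNA per cell cannot be told apart. The targeted mRNAs YAP1, WWTR1, BRD2 and BRD3 were each lower with the siRNA against them. The mesenchymal markers VIM, CD44, CAV1 and EGFR were measured in every library, with VIM at 2894 to 6615 scaled RPM, and KRT5, KRT14 and KRT17 were not analysed here.

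The family did not move as a block. The activators E2F1 and E2F2, the atypical E2F8 and the pocket protein RBL1 were lower by more than 2-fold after YAP/TAZ siRNA, BRD siRNA and JQ1 alike. E2F7 went against them and rose after BRD siRNA and JQ1. After YAP/TAZ siRNA all 10 members were called lower and 0 higher, where 35.9% of all tested genes were called lower and 43.1% higher. After BRD siRNA 8 were called lower and 2 higher, against 37.6% of all genes in each direction, and both knockdowns share the same control libraries. After JQ1 8 were called lower, 1 higher and 1 not called, against 36.3% of all genes lower and 37.6% higher. Falls of at least 2-fold befell 7, 4 and 6 members after YAP/TAZ siRNA, BRD siRNA and JQ1, where 8.37%, 8.27% and 8.94% of all genes fell that far. The median log2 fold change of the 10 members was -1.66, -0.70 and -1.15 in the same order, and that of all genes 0.07, -0.00 and 0.01. Taken mix by mix, 9 members were lower and 1 higher with mix 1, against 33.6% and 40.6% of all genes, and 10 lower and 0 higher with mix 2, against 35.7% and 42.7%. With mix A 8 were lower and 2 higher, against 36.1% and 37.2% of all genes, and with mix B 7 and 2, against 35.5% and 35.3%. Since so many genes were called, the size of a change says more here than the call.

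**Figure D1:**
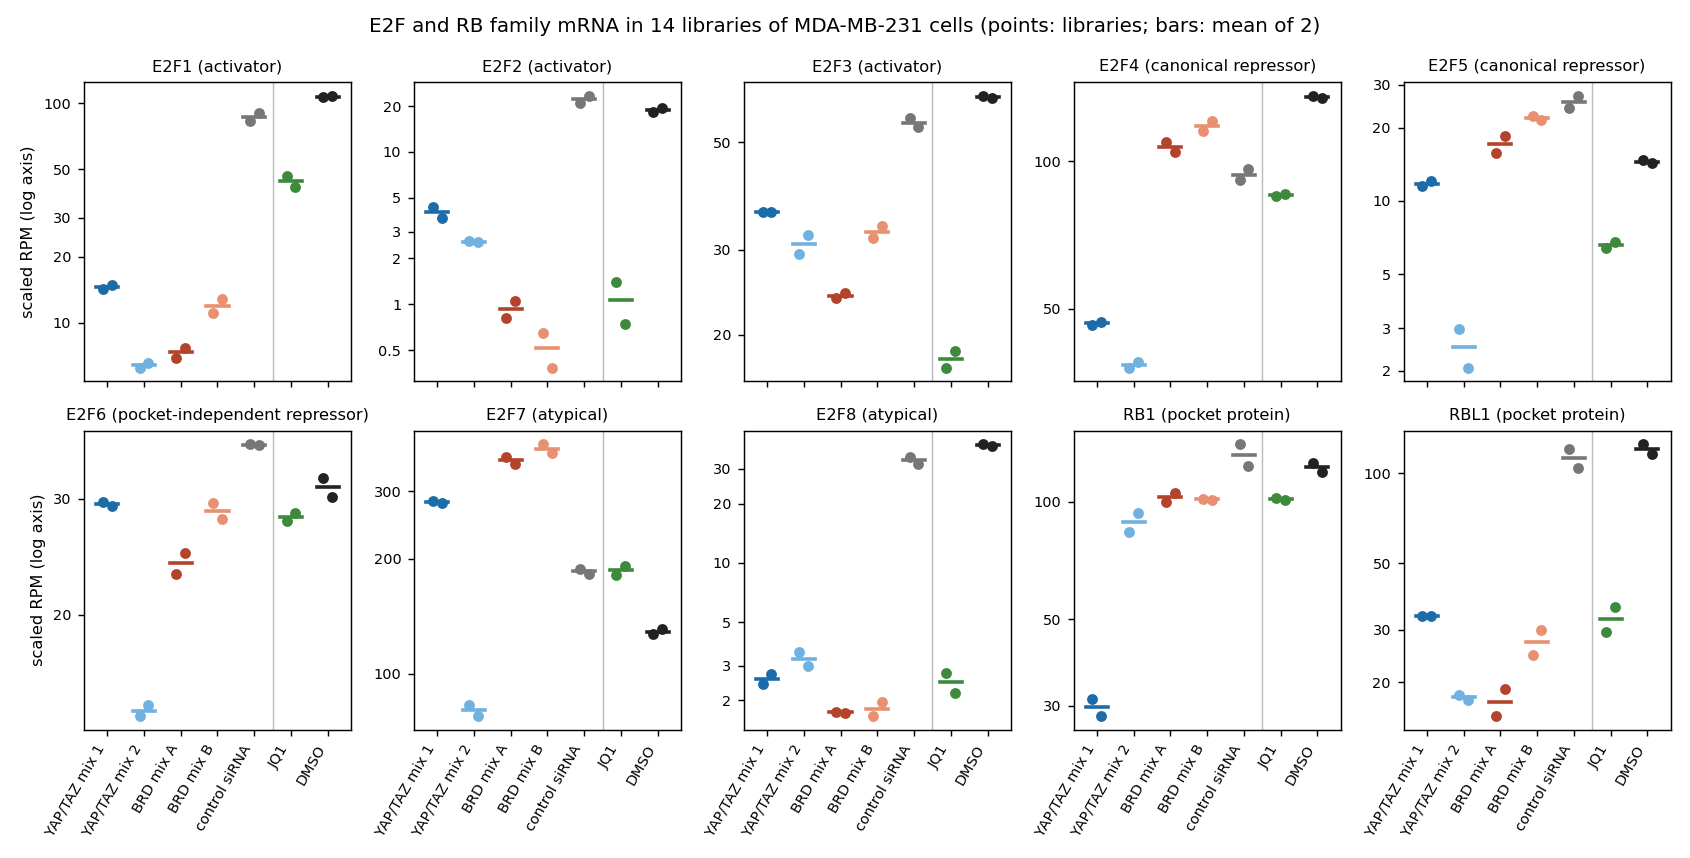
Level of each E2F and RB family gene in scaled RPM on log axes that differ between panels, with 1 point per library and a bar at the mean of 2 libraries; the grey line parts the siRNA groups from JQ1 and DMSO. E2F1, E2F2, E2F3, E2F6, E2F8, RB1 and RBL1 have their highest means in control siRNA and DMSO, whereas E2F7 is highest with BRD siRNA mix A and mix B, at 353 to 398 scaled RPM.

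Promoter sequence is shown for the 4 members in which a consensus E2F site was found, since these include all 3 activators, which fell in all 3 main comparisons. RefSeq promoter windows (GRCh38.p14, 250 bases before to 50 after a gene's start) matched 8 of the 10 members, all but E2F5 and E2F8. The site was searched on both strands as TTTCCCGC, TTTCGCGC, TTTGCCGC or TTTGGCGC, and 3.31% of 35116 promoters held it. Capitals mark the site, whichever strand it reads on.
E2F1 (chr20:33686386-33686448, minus strand): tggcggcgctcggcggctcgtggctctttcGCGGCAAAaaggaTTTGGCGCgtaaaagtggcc
E2F2 (chr1:23531238-23531305, minus strand): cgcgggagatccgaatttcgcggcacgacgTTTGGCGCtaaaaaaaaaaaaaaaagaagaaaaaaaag
E2F3 (chr6:20401796-20401863, plus strand): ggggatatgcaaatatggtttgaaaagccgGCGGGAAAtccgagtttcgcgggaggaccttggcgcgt
RBL1 (chr20:37095998-37096053, minus strand): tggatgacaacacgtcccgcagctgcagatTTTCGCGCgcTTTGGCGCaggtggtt
E2F1 and RBL1 each carried 2 such sites within 33 bases of the start, and E2F2 and E2F3 carried 1 each. E2F3 has 2 starts in the table and the site stood at the first. These letters were not found in the windows of E2F4, E2F6, E2F7 or RB1, and RB1 was also called lower in all 3 main comparisons. So were E2F5 and E2F8, which had no window to search. The CCAAT box, spelled CCAAT and present in 34.6% of all promoters, was found in E2F1, E2F3 and E2F7. The TEAD letters GGAATG, present in 4928 of the 35116 promoters, were found among the members in E2F4. The cell cycle homology region, TTTGAA or TTCGAA and present in 16.4%, was found in E2F3, as was the E-box CACGTG, present in 7.26%, at its second start. A match is a run of letters, not a measured binding site.

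E2F1, the activator best known for driving S phase genes and apoptosis, fell after all perturbations. It had 14.2 and 14.9 scaled RPM with YAP/TAZ siRNA mix 1, 6.24 and 6.52 with mix 2, 6.92 and 7.70 with BRD siRNA mix A, and 11.1 and 12.8 with mix B, against 82.8 and 90.0 with control siRNA. With JQ1 it had 46.4 and 41.5 scaled RPM, against 106 and 107.8 with DMSO. No treated library reached its control libraries, and the JQ1 libraries stayed above all 8 knockdown libraries. The mean was 8.25-fold lower after YAP/TAZ siRNA (log2 fold change -3.03, SE 0.0748, limma adjusted p = 1.81e-18) and 8.96-fold lower after BRD siRNA (-3.07, limma adjusted p = 8.63e-18). After JQ1 it was 2.43-fold lower (-1.27, SE 0.0863, limma adjusted p = 2.89e-11). Only 0.314% of all tested genes had a lower log2 fold change than E2F1 after YAP/TAZ siRNA.

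E2F2, the least abundant activator per length of mRNA in every group, came close to the detection limit. It had 4.37 and 3.66 scaled RPM with mix 1, 2.59 and 2.57 with mix 2, 0.81 and 1.05 with mix A and 0.65 and 0.38 with mix B, against 21.1 and 23.4 with control siRNA. JQ1 left 1.40 and 0.74 scaled RPM, against 18.4 and 19.6 with DMSO. The groups did not overlap. The 4 BRD libraries rested on 9 to 28 reads each and the JQ1 libraries on 35 and 21, so their values carry a large counting error. The mean was 6.74-fold lower after YAP/TAZ siRNA, 30.8-fold lower after BRD siRNA and 17.7-fold lower after JQ1. On the log2(value + 1) scale these were -2.45 (limma adjusted p = 1.59e-13), -3.77 and -3.29 (SE 0.144, limma adjusted p = 2.17e-14). On recovered reads edgeR gave -2.78, -4.97 and -4.17.

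E2F3, an activator that is expressed more evenly through the cell cycle, fell least of the 3 after the knockdowns and more than E2F1 after JQ1. It had 35.9 and 35.8 scaled RPM with mix 1, 29.4 and 32.2 with mix 2, 23.8 and 24.4 with mix A and 31.7 and 33.5 with mix B, against 56.1 and 53.6 with control siRNA. E2F3 stood at 17.1 and 18.5 scaled RPM with JQ1, against 62.2 and 61.5 with DMSO. Its lowest group was JQ1, whereas the lowest group of E2F1 was YAP/TAZ mix 2. The log2 fold change was -0.71 after YAP/TAZ siRNA (limma adjusted p = 9.36e-10), -0.94 after BRD siRNA (limma adjusted p = 1.11e-11) and -1.74 after JQ1 (SE 0.0700, limma adjusted p = 5.81e-15).

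E2F4, the main E2F of quiescent cells and the partner of RBL1, fell after YAP/TAZ siRNA but not after BRD siRNA. It had 46.4 and 47.0 scaled RPM with mix 1, 38.0 and 39.0 with mix 2, 109.7 and 105 with mix A and 116 and 121 with mix B, against 91.6 and 96.4 with control siRNA. JQ1 libraries held 85.0 and 86.0 scaled RPM of it, against 136 and 135 with DMSO. The YAP/TAZ libraries were low and both BRD mixes were above their control without overlap. The log2 fold change was -1.13 after YAP/TAZ siRNA (SE 0.0479, limma adjusted p = 8.59e-15), 0.26 after BRD siRNA (limma adjusted p = 6.05e-05) and -0.66 after JQ1 (limma adjusted p = 8.26e-10). The controls themselves differed, control siRNA being 0.52 below DMSO on the log2 scale. Set against DMSO, the BRD value turned to -0.27, so its direction rests on the choice of control.

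E2F5, the other canonical repressor, fell most with YAP/TAZ mix 2. It had 11.5 and 12.1 scaled RPM with mix 1, 2.97 and 2.07 with mix 2, 15.7 and 18.5 with mix A and 22.4 and 21.5 with mix B, against 24.1 and 27.0 with control siRNA. With JQ1 it had 6.38 and 6.74 scaled RPM, against 14.7 and 14.3 with DMSO. All treated libraries were below their own controls, those of mix B narrowly. The log2 fold change was -1.99 after YAP/TAZ siRNA (SE 0.0983, limma adjusted p = 1.04e-13), -0.38 after BRD siRNA (limma adjusted p = 0.00156) and -1.04 after JQ1 (limma adjusted p = 5.13e-08). Mix B alone gave -0.21, which limma did not call (adjusted p = 0.11). Control siRNA lay 0.77 above DMSO on the log2 scale, and against DMSO the BRD value was 0.39.

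E2F6, which represses with Polycomb proteins, changed least across the groups. It had 29.7 and 29.2 scaled RPM with mix 1, 14.1 and 14.6 with mix 2, 23.0 and 24.8 with mix A and 29.5 and 27.9 with mix B, against 36.2 in each control siRNA library. E2F6 stood at 27.8 and 28.5 scaled RPM with JQ1, against 32.3 and 30.2 with DMSO. Mix 2 stood apart below all other groups. The log2 fold change was -0.78 after YAP/TAZ siRNA (limma adjusted p = 3.2e-10) and -0.45 after BRD siRNA (limma adjusted p = 1.63e-06). After JQ1 it was -0.14 and was not called by limma (adjusted p = 0.081), although it was called with equal column totals (-0.21, adjusted p = 0.00956) and with median-ratio scaling (-0.18, adjusted p = 0.0335).

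E2F7 and E2F8, both atypical repressors that restrain E2F1, moved in opposite directions with YAP/TAZ mix 1, BRD siRNA and JQ1. With YAP/TAZ mix 2 both fell. E2F7 had 283 and 279 scaled RPM with mix 1, 82.9 and 77.6 with mix 2, 369 and 353 with mix A and 398 and 377 with mix B, against 188 and 183 with control siRNA. With JQ1 it had 181 and 191 scaled RPM, against 127 and 131 with DMSO. BRD siRNA and mix 1 libraries were above every control siRNA library and mix 2 libraries below, so the YAP/TAZ groups lay on either side of their control. E2F7 rose after BRD siRNA by 1.01 on the log2 scale (SE 0.0477, limma adjusted p = 7.59e-14) and after JQ1 by 0.53 (limma adjusted p = 2.35e-08). The mean over both YAP/TAZ mixes was -0.30 (limma adjusted p = 7.24e-06), a value made of 0.60 with mix 1 (limma adjusted p = 3.73e-09) and -1.20 with mix 2 (limma adjusted p = 3.02e-14). E2F7 was also 0.52 higher in control siRNA than in DMSO on the log2 scale, and its level with JQ1 did not differ from that with control siRNA beyond the spread (log2 difference 0.01, limma adjusted p = 0.932).

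E2F8 fell by more than 11-fold in all 3 main comparisons. It had 2.43 and 2.73 scaled RPM with mix 1, 3.52 and 2.98 with mix 2, 1.75 and 1.72 with mix A and 1.67 and 1.96 with mix B, against 34.7 and 31.7 with control siRNA. E2F8 stood at 2.77 and 2.18 scaled RPM with JQ1, against 40.005 and 39.1 with DMSO. The 10 treated libraries lay between 1.67 and 3.52 scaled RPM, far below the 4 control libraries. The mean was 11.4-fold lower after YAP/TAZ siRNA (log2 fold change -3.13, SE 0.101, limma adjusted p = 1.13e-16), 18.7-fold lower after BRD siRNA and 16.0-fold lower after JQ1 (-3.55, SE 0.117, limma adjusted p = 2.29e-16). The ratio of E2F7 to E2F8 within a library was 23.5 to 117 with YAP/TAZ siRNA and 192 to 239 with BRD siRNA, against 5.43 and 5.77 with control siRNA. That ratio was 65.4 and 88.0 with JQ1, against 3.17 and 3.34 with DMSO. E2F8 had as few as 37 reads in a library, so the ratios of the treated libraries carry a counting error. The ratio is one of reads, not of molecules, and shows only that the mRNAs changed unequally.

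RB1, the retinoblastoma protein gene that many tumours lose, was present in every library and fell most with YAP/TAZ mix 1. It had 31.2 and 28.2 scaled RPM with mix 1, 83.8 and 93.5 with mix 2, 100.03 and 105.5 with mix A and 102 and 101 with mix B, against 141 and 123 with control siRNA. With JQ1 it had 102 and 101 scaled RPM, against 126 and 119.7 with DMSO. Mix 1 stood far below all other groups, and mix A, mix B and JQ1 lay at like levels, with neighbouring groups among them not called different by limma (adjusted p = 0.863 and 0.993). The log2 fold change was -1.34 after YAP/TAZ siRNA (SE 0.0603, limma adjusted p = 2.15e-14), -0.36 after BRD siRNA (limma adjusted p = 1.52e-05) and -0.27 after JQ1 (limma adjusted p = 0.00158).

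RBL1, the pocket protein whose gene is switched on as cells enter the cycle, fell by more than 3-fold in all 3 main comparisons. It had 33.3 scaled RPM in each mix 1 library, 18.1 and 17.5 with mix 2, 15.5 and 19.1 with mix A and 24.6 and 29.8 with mix B, against 121 and 104 with control siRNA. JQ1 libraries held 29.6 and 35.8 scaled RPM of it, against 125 and 116 with DMSO. The treated libraries all lay far below the control libraries, with the highest at 35.8 scaled RPM. The log2 fold change was -2.15 after YAP/TAZ siRNA (SE 0.0898, limma adjusted p = 6.66e-15), -2.32 after BRD siRNA (limma adjusted p = 3.02e-15) and -1.85 after JQ1 (limma adjusted p = 1.16e-12). The third pocket protein gene, RBL2 (p130), is no member and was looked up after the members' values were seen. It was lower after YAP/TAZ siRNA (-0.60) and BRD siRNA (-0.31), and at -0.05 after JQ1 it was not called by limma (adjusted p = 0.628).

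**Figure D2:**
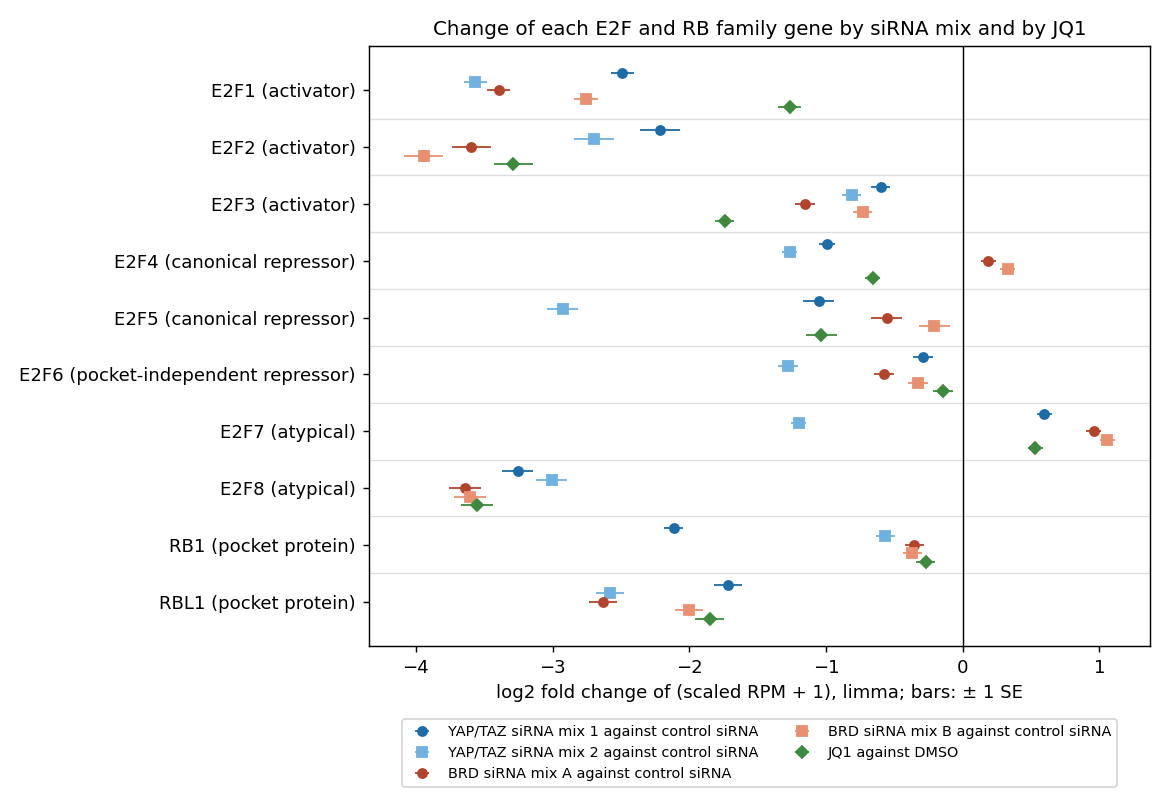
Log2 fold change of (scaled RPM + 1) for each gene, for each siRNA mix against control siRNA and for JQ1 against DMSO, with bars of 1 SE from limma. All 5 points of E2F1, E2F2, E2F3, E2F5, E2F6, E2F8, RB1 and RBL1 lie below 0. E2F7 lies above 0 for all but YAP/TAZ mix 2 (-1.20), and E2F4 lies above 0 for both BRD mixes only.

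Between the highest and the lowest of the 7 groups the members covered very different ranges. The span was 3.94 for E2F2, 3.89 for E2F8 and 3.87 for E2F1 on the log2 scale, and 1.28 for E2F6, against a median of 1.22 over all genes tested. E2F5 spanned 2.92, RBL1 2.74, E2F7 2.26, RB1 2.11, E2F4 1.79 and E2F3 1.74. Only 1.22% of genes spanned more than E2F2, and 46.7% more than E2F6. DMSO or control siRNA was the highest group for every member other than E2F7. The lowest group was YAP/TAZ mix 2 for E2F1, E2F4, E2F5, E2F6 and E2F7, BRD mix A for E2F8 and RBL1, BRD mix B for E2F2, YAP/TAZ mix 1 for RB1 and JQ1 for E2F3. Several neighbours at the low end were not told apart, such as BRD mix A and YAP/TAZ mix 2 for E2F1 (limma adjusted p = 0.0786) and for RBL1 (limma adjusted p = 0.662).

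Per kb of exon, which allows levels to be compared between genes, the make-up of E2F mRNA moved away from the activators. E2F1, E2F2 and E2F3 together made up 13.6% ± 0.083 of all E2F mRNA per kb with mix 1, 19.0% ± 1.03 with mix 2, 5.64% ± 0.327 with mix A and 7.23% ± 0.482 with mix B, against 31.2% ± 0.611 with control siRNA (SD, n = 2 each). With JQ1 they made up 19.9% ± 1.30, against 34.0% ± 0.329 with DMSO. Each treated group lay below its control by more than the spread. E2F7 and E2F8 together made up 49.7% ± 0.418 with mix 1, 31.1% ± 1.47 with mix 2, 46.0% ± 0.781 with mix A and 43.9% ± 1.44 with mix B, against 25.8% ± 1.35 with control siRNA. Their share was 31.1% ± 0.962 with JQ1, against 18.9% ± 0.197 with DMSO. E2F8 took no part in this higher share, with 0.44 to 0.83 per kb over the 4 siRNA mixes, against 8.45 with control siRNA, and 0.63 with JQ1, against 10.1 with DMSO. The higher share was that of E2F7, whose own level was nevertheless lower in mix 2 (13.97 per kb, against 32.3 with control siRNA). E2F4 and E2F5 made up 28.2% ± 0.421 with mix 1, below control siRNA, and 41.2% to 43.5% with the other 3 mixes, above it, against 36.4% ± 0.883 with control siRNA. With JQ1 they made up 41.4% ± 0.229, against 41.8% ± 0.278 with DMSO. Summed over all 8 genes, E2F mRNA per kb came to 99.8 with mix 1, 47.6 with mix 2, 137.7 with mix A and 155 with mix B, against 158 with control siRNA. The sum was 107 per kb with JQ1, against 172 with DMSO. Per kb, E2F4 led the 10 members with YAP/TAZ mix 2, control siRNA, JQ1 and DMSO, and E2F7 led with mix 1 and both BRD mixes. The lengths are of GRCh38 exons, whereas the reads were mapped to hg19 with an annotation that no source used here names.

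**Figure D3:**
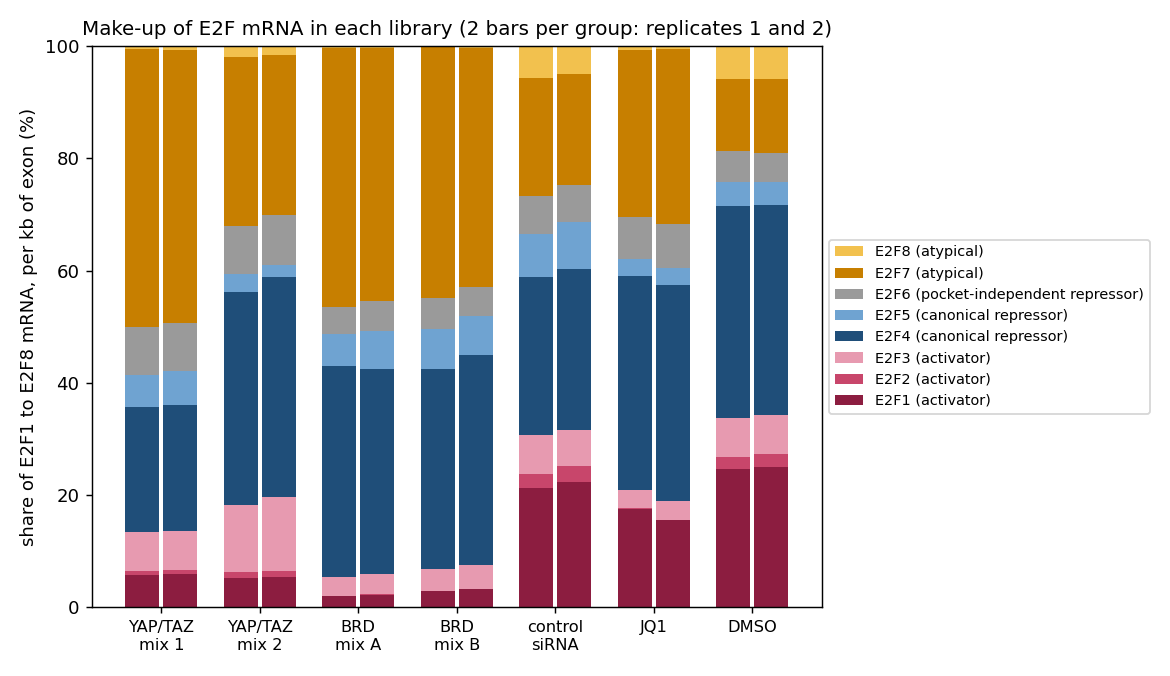
Share of each E2F gene in the summed E2F1 to E2F8 mRNA per kb of exon, in percent, with 1 bar for each library. The 3 activators at the foot of the bars narrow from 31.2% with control siRNA and 34.0% with DMSO in every treated group, to 5.64% with BRD mix A, and E2F7 widens.

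The siRNA mixes against the same targets differed in this family. Mix 1 was higher than mix 2 for 8 members and lower for 1, against 30.9% and 34.8% of all tested genes. E2F5 was 1.87 higher on the log2 scale with mix 1 than with mix 2 (limma adjusted p = 8.16e-12), E2F7 1.797 higher (limma adjusted p = 1.49e-16) and E2F1 1.08 higher. RB1 went the other way and was 1.55 lower with mix 1 (log2 difference -1.55, SE 0.0696, limma adjusted p = 6.27e-14). E2F8 at -0.25 was not called (limma adjusted p = 0.0669), but made the members called lower 2 with equal column totals, without a variance trend and without mix 2 replicate 2. YAP1 averaged 23.3 and WWTR1 16.2 scaled RPM with mix 1, against 20.0 and 12.7 with mix 2, so the targeted mRNAs were slightly lower with mix 2, and the part of this in the differences was not tested. Between BRD mix A and mix B the differences were smaller, with 1 member higher and 6 lower in mix A, against 25.7% and 24.3% of all genes. E2F1 (-0.64) and RBL1 (-0.63) differed most, and E2F7, E2F8 and RB1 were not called. The single higher member, E2F2 at 0.35 (limma adjusted p = 0.0492), rested on few reads and was lost under 7 of the alternative settings and also without replicate 2 of either mix. Members lower in mix A were 3 to 5 with a library left out, the lowest without mix B replicate 1.

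Set directly against BRD siRNA, YAP/TAZ siRNA gave higher values for 4 members and lower values for 5, against 41.1% and 40.3% of all genes. E2F1 was at 10.5 scaled RPM after YAP/TAZ siRNA and 9.64 after BRD siRNA, a log2 difference of 0.05 (SE 0.0610) that limma did not call (adjusted p = 0.474). E2F2 (1.31), E2F8 (0.49) and E2F3 (0.24) were higher after YAP/TAZ siRNA, as was RBL1 by 0.17 (limma adjusted p = 0.0394). E2F5 (-1.61), E2F4 (-1.39), E2F7 (-1.31), RB1 (-0.98) and E2F6 (-0.33) were lower after YAP/TAZ siRNA. These are means over both mixes, harvested at 48 h for YAP/TAZ and 72 h for BRD siRNA. For E2F1 the YAP/TAZ mixes lay on either side of the BRD mixes, so the small mean difference does not show like levels. Mix 1 (14.6 scaled RPM) was above mix A (7.31) and mix B (11.96, limma adjusted p = 0.00894). Mix 2 (6.38) was below both, although it was not told apart from mix A (limma adjusted p = 0.0786). E2F4, E2F5 and E2F7 were lower with each YAP/TAZ mix than with either BRD mix. E2F6 was lower only with mix 2 (14.3 scaled RPM), mix 1 being at 29.4, against 23.9 with mix A and 28.7 with mix B. RB1 was lowest with mix 1 (29.7), mix 2 being at 88.7, against 103 with mix A and 102 with mix B. No activator was called lower and no canonical repressor higher in this comparison.

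JQ1 and BRD siRNA both act on BET proteins, at different times and with different controls. The JQ1 effect minus the BRD siRNA effect was called above 0 for 4 members and below 0 for 4, against 30.2% and 29.9% of all genes. E2F1 had the largest difference (1.81 on the log2 scale), with -1.27 after JQ1 and -3.07 after BRD siRNA. RBL1 (0.47), E2F2 (0.48) and E2F6 (0.31) were also less lowered by JQ1, the call of E2F2 being narrow (limma adjusted p = 0.0348). E2F4 (-0.92), E2F3 (-0.80), E2F5 (-0.65) and E2F7 (-0.48) had the lower value after JQ1. E2F8 (0.07) and RB1 (0.09) were not called, and without DMSO replicate 2 only 2 members were called above 0. The JQ1 effect minus the YAP/TAZ siRNA effect was above 0 for 6 members and below 0 for 3, against 30.9% and 32.4% of all genes, led by E2F1 (1.76) and RB1 (1.07) above and E2F3 (-1.03) below. The controls differed too: control siRNA was higher than DMSO for 3 members and lower for 3, against 25.4% and 28.7% of all genes, and within 0.25 on the log2 scale for E2F2, E2F8, RB1 and RBL1, which were not called. The members lower than in DMSO were 1 with equal column totals and 1 to 2 with a library left out, the lowest without control siRNA replicate 1.

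Genes that work with E2F and RB proteins were read from lists of their known roles. The counts in the lists stand against all tested genes, of which 35.9% were lower and 43.1% higher after YAP/TAZ siRNA, 37.6% each way after BRD siRNA, and 36.3% lower and 37.6% higher after JQ1. Of 12 E2F partners and members of the MuvB complex, which represses or activates cell cycle genes depending on its partner, 11 were tested. After YAP/TAZ siRNA 7 were lower and 1 higher, after BRD siRNA 9 and 2, and after JQ1 9 and 2. Their median log2 fold change was -0.80 after YAP/TAZ siRNA, -0.57 after BRD siRNA and -1.03 after JQ1, and the values of single genes follow in this order of comparisons. TFDP1, the main DP partner of E2F1, fell (-1.83, -0.57 and -1.20). MYBL2 (B-MYB), the MuvB partner of S phase, fell further (-1.96, -1.99 and -2.92). So did FOXM1, the MuvB partner in G2, after BRD siRNA and JQ1 but not after YAP/TAZ siRNA (-0.80, -1.15 and -2.10). LIN37, a MuvB subunit needed for repression and named after its values were seen, rose (0.35, 0.66 and 0.70).

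Among 10 RB kinases and cyclins, 8 were lower and 0 higher after YAP/TAZ siRNA, 8 lower and 2 higher after BRD siRNA and 7 lower and 3 higher after JQ1, with medians of -1.29, -1.37 and -0.99. Of all genes 35.9%, 37.6% and 36.3% were lower in these comparisons. CCNE1, the cyclin E that activates CDK2, had 2.59 scaled RPM after YAP/TAZ siRNA and 0.945 after BRD siRNA, against 21.3 with control siRNA, and 6.47 after JQ1, against 12.5 with DMSO. CDC25A, the phosphatase that switches on CDK2, fell in all 3 comparisons (-4.11, -2.85 and -2.82 on the log2 scale), and so did CDK6, a kinase of RB1 (-1.42, -1.70 and -1.03). The cyclin D genes CCND1 and CCND2 were the higher ones after BRD siRNA (0.29 and 0.75), and together with CCND3 the higher ones after JQ1 (0.58, 1.08 and 0.37); these 3 were named after their values were seen. CCND2 differed between the BRD mixes, at 0.19 with mix A (limma adjusted p = 0.0552, not called) and 1.31 with mix B. Of 7 CDK inhibitors 5 were tested, with 4, 3 and 3 higher and 1 lower each time, where 43.1%, 37.6% and 37.6% of all genes were higher. CDKN1A (p21) rose in all 3 comparisons (1.15, 0.96 and 2.88). Its rise differed between mixes, at 1.94 with mix 1 and 0.35 with mix 2, and at 0.33 with mix A and 1.59 with mix B. CDKN2C (p18), which binds CDK4 and CDK6, rose after YAP/TAZ siRNA (0.65) and fell after BRD siRNA (-1.52) and JQ1 (-1.23).

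The 10 Polycomb partners of E2F6 and the 10 corepressors of pocket proteins went both ways. Of the Polycomb partners 7 were lower and 1 higher after YAP/TAZ siRNA, 5 and 2 after BRD siRNA, and 7 and 3 after JQ1. Of all genes 35.9%, 37.6% and 36.3% were lower and 43.1%, 37.6% and 37.6% higher in these comparisons. Their medians were -0.24, -0.18 and -0.66. PCGF6, a defining subunit of the E2F6 complex, fell in all 3 comparisons (-1.505, -0.64 and -1.24). Of the corepressors 4, 5 and 5 were lower and 5, 4 and 4 higher after YAP/TAZ siRNA, BRD siRNA and JQ1, shares near those of all genes (35.9%, 37.6% and 36.3% lower, and 43.1%, 37.6% and 37.6% higher). Their medians were 0.30, -0.05 and -0.14. SUV39H1, a histone methyltransferase, fell in all 3 comparisons (-1.09, -1.27 and -1.87), and KDM5A, a demethylase that binds RB1, rose in all 3 (0.68, 0.85 and 0.56).

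All 30 listed E2F target genes of S phase were lower in each of the 3 comparisons, with a median log2 fold change of -2.17 after YAP/TAZ siRNA, -1.72 after BRD siRNA and -1.75 after JQ1. The fall was at least 2-fold for 30, 25 and 25 of them, where 8.37%, 8.27% and 8.94% of all genes fell that far and 35.9%, 37.6% and 36.3% were lower at all. CLSPN, a replication checkpoint mediator, fell in all 3 comparisons (-3.08, -2.30 and -1.28). UHRF1, which helps to copy DNA methylation (-2.86, -2.85 and -2.41), and MCM7, a subunit of the replicative helicase (-1.86, -1.70 and -1.74), fell as well. Replication genes were already known to fall in these libraries when the list was made, so it is no independent evidence.

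**Figure D4:**
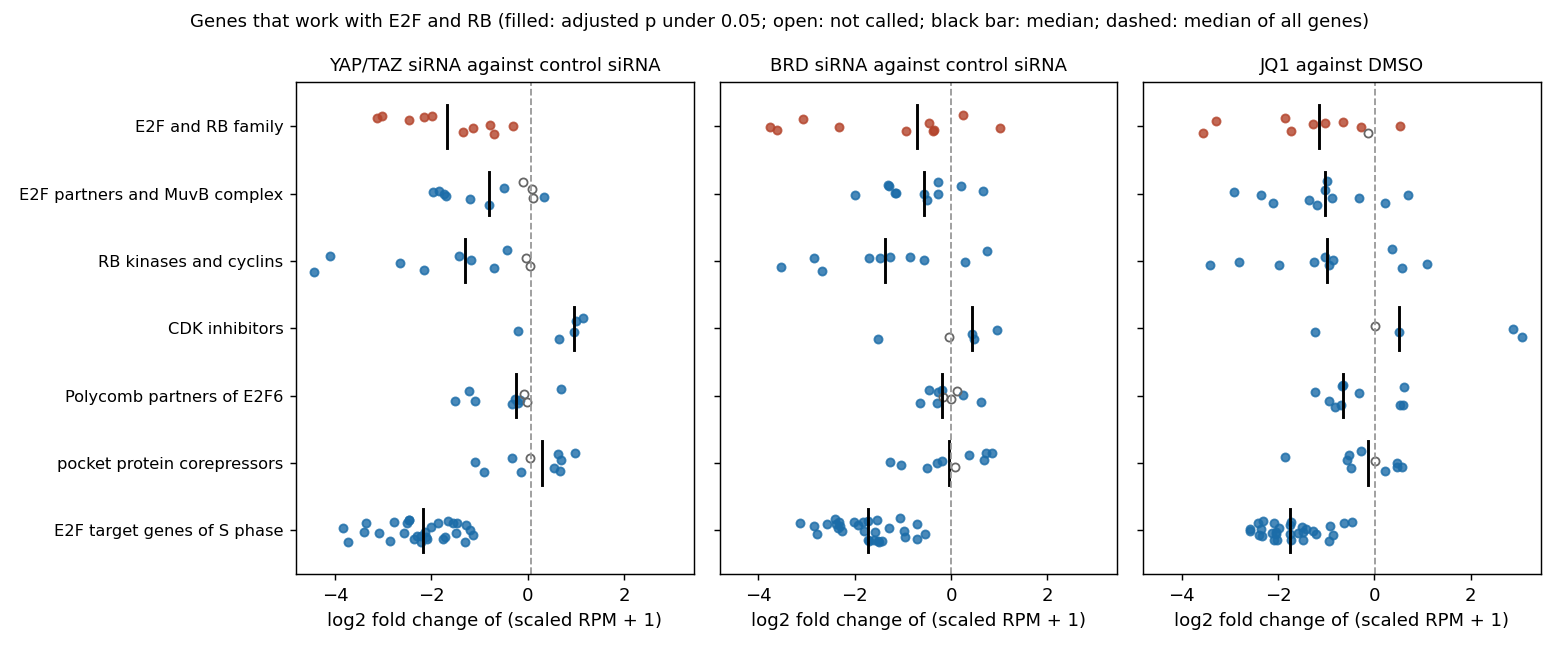
Log2 fold change of (scaled RPM + 1) of the E2F and RB family and of 6 lists of genes that work with it, for YAP/TAZ siRNA and BRD siRNA against control siRNA and for JQ1 against DMSO; filled points have a limma adjusted p under 0.05 and black bars are medians. All points of the E2F target genes of S phase lie below 0, while the CDK inhibitors have medians of 0.96, 0.42 and 0.51.

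The genes whose pattern over the 7 groups was most like that of a member were found by the root mean square (RMS) difference of centred log2 group means, among 10765 other genes with a mean of at least 5. E2F1 was closest to TCF19 (RMS 0.279), ORC1 (0.394), a subunit of the origin recognition complex, and CHAF1B (0.401), a histone chaperone. RBL1 was closest to CDT1 (0.119), which licenses replication origins, RRM1 (0.136), a ribonucleotide reductase subunit, and GJA1 (0.157), a gap junction gene. E2F8 was closest to the histone gene HIST1H2BE (0.152), and E2F2 to FANCD2 (0.420), a DNA repair gene. How reads shared among near-identical histone genes were counted is uncertain. E2F4 was closest to MALSU1 (0.111). E2F5 lay nearest B3GNT5 (0.199), E2F6 AFAP1 (0.109), E2F7 OSMR (0.201), the oncostatin M receptor, and RB1 FAM96A (0.144). Among the members themselves E2F2 and E2F8 were closest (RMS 0.469), then E2F4 and E2F6 (0.491) and E2F3 and E2F6 (0.540). In the treated groups E2F2 averaged 0.515 to 4.02 and E2F8 1.74 to 3.25 scaled RPM. At such levels log2(value + 1) narrows differences, and the part of this in their likeness was not tested. RBL1 lay nearer to E2F1 (0.613) than to RB1 (1.04). These likenesses rest on 7 group means that share libraries and carry no test.

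Markers of other cell types moved with some groups. The 2 leukocyte markers measured of 5 listed, CD14 and LYZ, summed to 26.4 to 29.97 scaled RPM with YAP/TAZ siRNA and 2.17 to 2.94 with BRD siRNA, against 6.45 to 7.28 with control siRNA. Their sum was 1.83 to 1.89 with JQ1, against 2.30 to 2.68 with DMSO. LYZ made up most of the sum with YAP/TAZ siRNA, and CD14 had the higher mean with BRD siRNA and with JQ1, where LYZ had the lower. The 4 fibroblast and endothelial markers measured of 6 summed to 39.1 to 47.6 with YAP/TAZ siRNA and 32.7 to 53.2 with BRD siRNA, against 13.6 to 17.9 with control siRNA, and to 18.2 to 18.9 with JQ1, against 12.2 to 13.3 with DMSO. With BRD siRNA only KDR was higher (mean 32.4, against 4.20 with control siRNA), while COL1A1, PDGFRB and PECAM1 were lower in the mean. With YAP/TAZ siRNA all 4 had the higher mean. The 7 luminal markers measured of 10 summed to 1983 to 2110.2 with YAP/TAZ siRNA and 1273 to 1624 with BRD siRNA, against 1269 to 1329 with control siRNA, and to 5458 to 5935 with JQ1, against 1432 to 1433 with DMSO. KRT8, KRT18 and KRT19 made up most of that sum, and with JQ1 EPCAM (mean 6.94, against 18.4 with DMSO) and GATA3 (1.28, against 1.81) were lower. No measured marker was at 0 in any library, and the part of these shifts in the E2F and RB results was not tested.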

How the data were processed

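RNA of MDA-MB-231 cells was sequenced in 14 stranded total RNA libraries, per the labels' protocols. Tools listed in the submitters' processing notes are TopHat2 2.0.5, HTSeq 0.6.0, CASAVA 1.8.4, R 3.0.0 and edgeR, with the build hg19; their order, the annotation and the strand setting are not stated. The deposited values carry the name CPM, which the analysis plan assumed, but the columns summed to 903627 to 1098052, so they were treated as a signal scaled by the authors to an effective library size. Each value was a whole multiple of the value of 1 read, and whole reads were recovered for 100% of values at a tolerance of 0.01.

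Groups came from the titles. Values were taken as log2(value + 1), and the 13674 genes with at least 1 in at least 2 libraries were fitted with limma 3.58.1 (R 4.3.3) as 7 groups, with a variance trend, 7 residual and 13.2 prior degrees of freedom. P-values are two-sided and Benjamini-Hochberg adjusted within each comparison, at a threshold of 0.05. YAP/TAZ and BRD effects are means over their 2 mixes. The fit was also run on simulated data with far fewer changed genes than were called here. That run cannot show whether the share of genes called here is right. Replicates differed by more than sampling noise in each group (chi-square per gene 3.44 to 10.6). The members and gene lists were chosen with earlier results of these data known. Named genes are the members, the targeted genes, up to 3 genes per list with the largest moderated statistics in a comparison, and the 3 nearest genes of a member; some are not reported here. Lengths are exon unions of GENCODE basic transcripts on GRCh38. The alternatives were a pseudocount of 4 or 0.25, a filter at 5 or none, equal column totals, median-ratio scaling, blocking on replicate, a constant variance prior, a fit of the compared libraries alone, edgeR 4.0.16 and DESeq2 1.42.0 on recovered reads, each library left out, each mix alone, and DMSO as reference.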

Additional observations from a re-analysis of the deposited data

Results flagged for a closer look

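E2F7 was singled out because both sets of YAP/TAZ siRNA libraries moved in opposite directions against the same control siRNA libraries. The difference between mix 1 and mix 2 was 1.797 on the log2 scale (limma adjusted p = 1.49e-16), with all libraries of mix 1 above and all libraries of mix 2 below control siRNA. The explanation was not tested.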

How the results depend on the processing

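Across 1610 values of members under alternative settings, 1522 kept direction and side of the threshold, 56 lost the call, 19 gained it and 13 changed sign. In YAP/TAZ siRNA against control siRNA, E2F7 turned to 0.60 with mix 1 alone and 0.22 with DMSO as reference, making 1 member higher in place of 0. In BRD siRNA against control siRNA, E2F4 turned to -0.27 and E2F5 to 0.39 with DMSO as reference. The other sign changes were of values not called. In the JQ1 effect minus the BRD siRNA effect, E2F8 turned to -0.067 with a pseudocount of 4 and ranged over -0.053 to 0.194 with a library left out, lowest without JQ1 replicate 1, and RB1 ranged over -3.94e-05 to 0.187, lowest without control siRNA replicate 1. In control siRNA against DMSO, RBL1 turned to 0.026 with equal column totals and ranged over -0.211 to 0.0066 with a library left out, highest without control siRNA replicate 2. In mix A against mix B, RB1 turned to -0.039 with equal column totals and ranged over -0.023 to 0.053 with a library left out, lowest without mix A replicate 2, and E2F8 over -0.113 to 0.037, highest without mix B replicate 2. In YAP/TAZ siRNA against BRD siRNA, E2F1 ranged over -0.00049 to 0.096 with a library left out, lowest without mix B replicate 1. In mix A against mix B, members called higher were 0 in place of 1 with a pseudocount of 4, equal column totals, the replicate block, no variance trend, only the libraries compared, edgeR and DESeq2, and 0 to 1 with a library left out, 0 without replicate 2 of either mix. Members called lower were 3 to 5 in place of 6 with a library left out, 3 of them without mix B replicate 1. In control siRNA against DMSO, members called lower were 1 in place of 3 with equal column totals and 1 to 2 with a library left out, 1 without control siRNA replicate 1. In mix 1 against mix 2, members called lower were 2 in place of 1 with equal column totals and with no variance trend, and 1 to 2 with a library left out, 2 without mix 2 replicate 2. In the JQ1 effect minus the BRD siRNA effect, members called higher were 2 to 4 with a library left out, 2 without DMSO replicate 2. The cause was not tested. Equal column totals moved the median of all genes to 0.12 after YAP/TAZ siRNA and -0.11 after BRD siRNA. Same-numbered replicates deviated together in 7 of 21 pairs of groups (correlation over 0.1; range -0.373 to 0.254), so the numbers were not taken to pair libraries, and the replicate block left 10 members lower after YAP/TAZ siRNA, 8 after BRD siRNA and 8 after JQ1. Depth limits E2F2 with BRD siRNA, at 9 to 28 reads a library, and with JQ1, at 35 and 21 reads.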
